A study of Mus musculus with 12 samples.

Results

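The 40 genes described here carry cells through mitosis and the segregation of chromosomes. The rule names them one by one and uses no measured value, and all 40 were found among the 27503 genes of the deposited table and passed the filter on low counts, which kept 17590 genes. They were measured by RNA sequencing in mouse melanoma cells of the B16F10 line, with IRF7 either wild type or as C435A, in which alanine replaces a cysteine of this interferon-inducing transcription factor. The 4 groups were IRF7-C435A cells given IFNα (mutant IFNα), wild-type cells given IFNα (WT IFNα), IRF7-C435A cells without it (mutant control) and wild-type cells without it (WT control), with 3 libraries each. The sources used here give neither the dose nor the time of IFNα, nor how the mutant line was made or whether it is a single clone. Nothing in the labels says that libraries of a group came from separate cultures, so the p-values cover the spread between these libraries alone, and that spread may be technical.

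Mitosis is started by the kinase CDK1 bound to cyclins B and A, and is driven on by the Aurora and Polo-like kinases. Microtubules of the spindle attach to chromosomes at kinetochores, and the spindle checkpoint holds anaphase back until every chromosome is attached. A ubiquitin ligase activated by CDC20 then triggers separase to cut the rings that hold sister chromatids together, and a contractile ring divides the cell. The transcripts of these genes peak late in the cell cycle, so their levels in a culture depend on how many cells are dividing. Type I interferons are known to slow the division of many cell types.

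In outline, the mitotic genes sat slightly higher with IFNα in both lines and slightly lower in the mutant than in the wild type, by shifts that were mostly too small to pass a test gene by gene. Averaged over both lines, 39 of 40 genes had a positive log2 fold change with IFNα, at a median of 0.27. Averaged over both treatments, 37 of 40 had a negative log2 fold change in the mutant, at a median of −0.21. A single gene passed: Tpx2, which builds spindle microtubules around chromosomes, was lower in the mutant, and that call was lost in several alternative fits given below. Because this is RNA of whole cultures, fewer dividing cells and less RNA per cell cannot be told apart.

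The libraries held 60511573 (mutant IFNα 3) to 75927461 counts (WT IFNα 1). These totals cannot be read as numbers of fragments, since 33.6% of the counts from 1 to 30 were multiples of 4, against 23.3% of the whole numbers in that range. The melanocyte markers, among them Pmel, Dct and Tyr, summed to between 9822 and 13401 CPM (counts relative to library size, after TMM scaling) over the 12 libraries, so markers of the labelled cell type were present in each. Transcripts of lung were present in 8 libraries, where 10 lung markers summed to between 47.3 and 70.6 CPM. These 8 were mutant IFNα 3, all 3 WT IFNα libraries, all 3 mutant controls and WT control 1. In the other 4 libraries the sum was 0.834 to 1.09 CPM, and Sftpa1, Sftpb, Sftpd and Cyp2f2 were at 0. Lung transcripts were thus present in 4 of 6 libraries on either side of both averaged comparisons, but in 3 of 3 against 1 of 3, or the reverse, in each single one. WT IFNα 1 stood apart, with an upper-quartile FPKM (fragments scaled for transcript length and library size) of 3.17. WT control 3 was at 2.97 and the other 10 libraries were at 2.55 to 2.75.

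The levels of the 40 genes spanned a wide range. By mean FPKM over the 12 libraries, a scale that allows for gene length, 12 genes were at 10 or above, 24 were between 1 and 10, and 4 were under 1. Plk1, the Polo-like kinase, led at 61.0 FPKM, ahead of Cdk1 at 58.3 FPKM and Cdc20 at 43.5 FPKM. Birc5, which encodes the passenger protein survivin, stood at 40.3 FPKM, the kinase Aurka at 37.8 FPKM and the ubiquitin-conjugating enzyme Ube2c at 33.6 FPKM. Plk1 lay at percentile 93.8 of all genes tested, whereas Mki67, the proliferation marker Ki-67, lay at percentile 49.7 with a mean of 1.32 FPKM. The lowest were Ttk at 0.952 FPKM, Cenpe at 0.297 FPKM, Cit at 0.156 FPKM and Cenpf at 0.130 FPKM. Mitotic kinases and passenger proteins had a median of 37.8 FPKM, the cyclin and CDK genes 19.1 FPKM, and the kinetochore and centromere genes 1.45 FPKM.

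Of the 4 lowest genes 3 were also long. Cenpf has a longest annotated transcript of 11.1 kb, Cit one of 9.51 kb and Cenpe one of 7.91 kb, while that of Ttk is 2.87 kb. Over the 40 genes the Spearman correlation of that length with mean FPKM was −0.62, against −0.22 over 17193 genes tested with an annotated length. Both are descriptions over genes that share libraries. The median annotated length was 3.87 kb for the 40 genes and 2.86 kb for all genes.

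The promoters of mitotic genes often hold the cell cycle homology region, TTTGAA or TTTAAA, which MuvB complexes bind, together with CCAAT boxes bound by NF-Y. Of the 40 genes, 34 had a RefSeq promoter window, running from 250 bases before to 50 bases after the transcript start in build GRCm38.p6. Aurkb, Ccna2, Incenp, Kif20a, Smc4 and Tpx2 had none. Both strands were searched, and overlapping matches were counted. The windows of the 4 genes with the largest averaged IFNα log2 fold changes among those holding both kinds of motif are shown, since they let the motifs be seen beside the values below. Capitals mark every match: TTTGAA, its reverse complement TTCAAA, or TTTAAA, and CCAAT or its reverse complement ATTGG.
Espl1 (chr15:102296043-102296342, plus strand): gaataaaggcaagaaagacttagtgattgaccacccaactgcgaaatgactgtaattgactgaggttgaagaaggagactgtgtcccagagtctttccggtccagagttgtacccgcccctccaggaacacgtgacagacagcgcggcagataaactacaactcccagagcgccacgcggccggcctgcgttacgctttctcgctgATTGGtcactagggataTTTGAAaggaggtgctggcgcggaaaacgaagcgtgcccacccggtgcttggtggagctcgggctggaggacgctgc
Cenpf (chr1:189688037-189688336, minus strand): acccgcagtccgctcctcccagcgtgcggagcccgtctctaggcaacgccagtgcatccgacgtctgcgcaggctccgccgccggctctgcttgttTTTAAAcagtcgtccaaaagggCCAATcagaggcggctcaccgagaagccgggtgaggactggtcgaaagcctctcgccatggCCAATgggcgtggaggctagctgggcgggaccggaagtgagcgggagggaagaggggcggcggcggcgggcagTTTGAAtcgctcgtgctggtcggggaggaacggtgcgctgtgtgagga
Smc2 (chr4:52438971-52439270, plus strand): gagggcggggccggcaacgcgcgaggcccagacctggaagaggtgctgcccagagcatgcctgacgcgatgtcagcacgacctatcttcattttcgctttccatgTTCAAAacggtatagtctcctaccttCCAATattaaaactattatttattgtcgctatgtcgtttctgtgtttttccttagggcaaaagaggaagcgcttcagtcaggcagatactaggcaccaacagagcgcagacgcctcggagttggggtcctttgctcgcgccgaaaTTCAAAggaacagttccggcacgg
Hmmr (chr11:40733388-40733687, minus strand): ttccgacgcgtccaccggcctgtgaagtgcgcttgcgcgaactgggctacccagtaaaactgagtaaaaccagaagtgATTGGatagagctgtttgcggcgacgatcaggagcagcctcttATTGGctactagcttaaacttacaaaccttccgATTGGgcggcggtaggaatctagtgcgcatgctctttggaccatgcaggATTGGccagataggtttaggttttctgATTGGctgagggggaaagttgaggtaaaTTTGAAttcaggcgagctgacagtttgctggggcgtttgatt

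Espl1 has 1 match of the homology region, which begins at −27 from the start, and 1 CCAAT match at −44. In Hmmr a homology region match begins at 8 behind 5 CCAAT matches, of which the nearest begins at −20. Over the 34 genes, 29 (85.3%) held TTTGAA or TTTAAA anywhere in the window, against 30.6% of 27025 genes with windows of the same length. Within 50 bases of the start the shares were 73.5% (25 of 34) and 9.54%. CCAAT was in 76.5% (26 of 34) against 41.1% of all genes, and both kinds were in 73.5% (25 of 34) against 12.2%. The 25 genes with a homology region form near the start had a median averaged IFNα log2 fold change of 0.27, and the 9 without one a median of 0.20. A match describes letters in a window and is not evidence of binding.

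**Figure D1:**
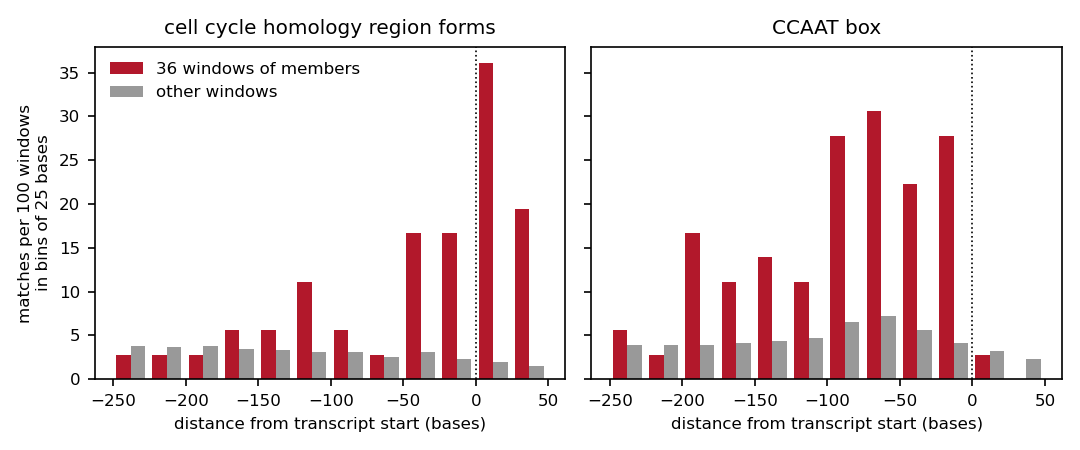
Matches per 100 promoter windows in bins of 25 bases, plotted against distance from the transcript start, for the 36 windows of 34 mitotic genes (red) and all other windows (grey). Homology region forms peak in the bin that begins at the start, at 36.1 per 100 mitotic windows against 1.97 per 100 others, and CCAAT boxes lie mostly upstream of the start.

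The response of the mitotic genes to IFNα was asked in each line and as the average of both lines. All tests below used edgeR's quasi-likelihood test in a single fit of 12 libraries, with Benjamini-Hochberg adjustment over 17590 genes and a threshold of 0.05. In the average, 0 of the 40 genes passed (0.171% of all genes did), while 20 had a positive change at an unadjusted p under 0.05, as did 5.70% of all genes, and 0 a negative one. DESeq2 called 2 of them higher, Espl1 and Ube2c, against 141 of all 17590 genes, and limma called 0 of 37 tested. Positive changes numbered 39 of 40, against 50.4% of all genes, and the median log2 fold change was 0.27 against 0.0020 over all genes. The 95% intervals of all 40 changes lay within 2-fold in either direction, and those of 33 within 1.5-fold.

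The same direction was found in each line. In the mutant 35 of 40 genes had a positive log2 fold change with IFNα, against 49.2% of all genes, at a median of 0.20 against −0.0072 over all genes. In the wild type 39 of 40 did, against 52.9% of all genes, at a median of 0.31 against 0.016. These comparisons share no library, and 34 of 40 genes were positive in both, a share not worked out for all genes. Genes of this set tend to move together within a library. In WT IFNα 2, 39 of 40 lay above their mean CPM, and in mutant control 2, 2 of 40. Counts over the 40 genes are thus not separate observations. By edgeR 0 of the 40 passed in the mutant (0.00569% of all genes did) and 0 in the wild type (0.0227% did). At an unadjusted p under 0.05, 10 genes were higher in the mutant, against 5.70% of all genes, and 14 in the wild type, against 2.68%, and 0 were lower in either line. DESeq2 and limma also called 0 in either line. The FPKM of the groups did not overlap for 13 genes in the mutant and 6 in the wild type, all higher with IFNα, as for 9.75% and 4.77% of all genes. Overlap depended on the scale. In CPM, the scale nearer to the edgeR test, 9 genes were apart and higher in the mutant, against 7.97% of all genes, and 16 in the wild type, against 5.48%. Birc5 alone was apart and lower in CPM, in the mutant, as were 9.74% of all genes. Lung transcripts lay on opposite sides of these comparisons, with control in the mutant and with IFNα in the wild type. With a term for the 8 libraries that hold them, a term chosen after the data were seen, the medians were 0.14 in the mutant, 0.35 in the wild type and 0.27 in the average, with 29, 40 and 39 of 40 positive. Fibroblast and endothelial markers had 2 of 9 positive with IFNα in the mutant (median −0.20), 9 of 9 in the wild type (median 0.84) and 8 of 9 in the average (median 0.30). Their summed level was 33.4 to 82.3 CPM with IFNα against 39.8 to 72.3 CPM in mutant controls, and 62.2 to 68.3 CPM with IFNα against 37.7 to 39.2 CPM in WT controls. Dcn and Cdh5, which mark fibroblasts and endothelium, were at 0 in 4 of 12 libraries. Leukocyte markers were negative in 7 of 7 in the IFNα average (median −0.22), with sums of 76.4 to 114 CPM with IFNα and 82.1 to 143 CPM in controls. The part of these markers in the IFNα result was not tested.

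**Figure D2:**
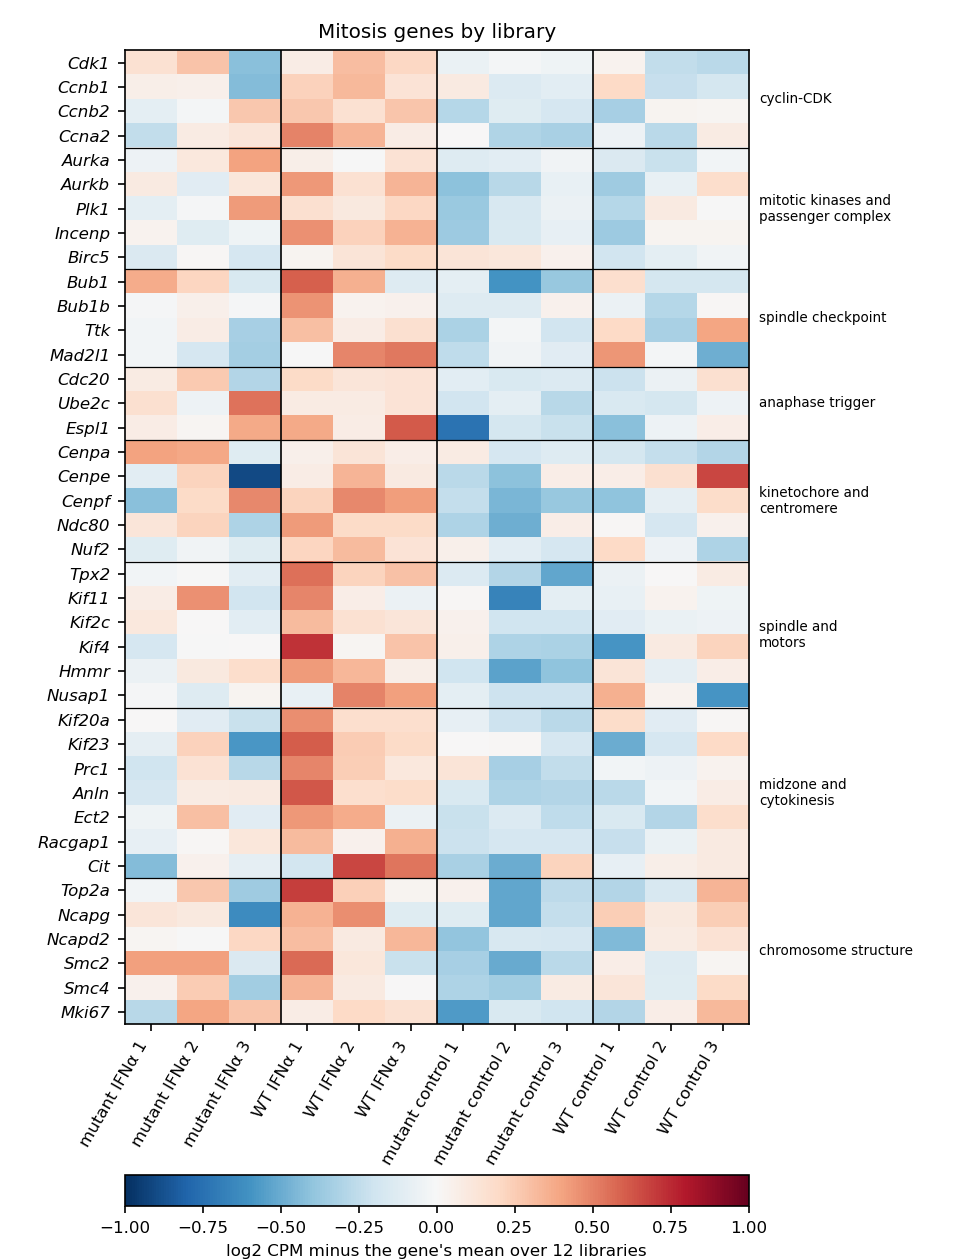
Level of each of the 40 genes in each library, as log2 CPM minus the gene's mean over 12 libraries, grouped by role (red above, blue below the mean). The 3 WT IFNα libraries are mostly red, with medians of 0.16 to 0.33, and the 3 mutant controls mostly blue, with medians of −0.19 to −0.15.

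The cyclin and CDK genes start mitosis. Cdk1, the kinase itself, had 61.8, 69.8 and 41.5 FPKM in mutant IFNα libraries 1, 2 and 3 and 68.7, 71.0 and 66.2 FPKM in WT IFNα libraries, against 53.2, 54.7 and 53.2 FPKM in mutant controls and 58.1, 48.3 and 52.9 FPKM in WT controls. All WT IFNα libraries lay above all WT controls, whereas in the mutant 2 IFNα libraries lay above all controls and mutant IFNα 3 lay below them. The averaged IFNα log2 fold change of Cdk1 was 0.22 ± 0.110 (adjusted p = 0.540). Ccnb1, its cyclin B1 partner, had 18.5, 18.9 and 13.1 FPKM with IFNα in the mutant and 24.3, 22.9 and 20.1 FPKM with IFNα in the wild type, against 18.9, 16.1 and 16.2 FPKM in mutant controls and 20.8, 15.5 and 18.02 FPKM in WT controls. Its IFNα libraries overlapped the controls in both lines, at an averaged log2 fold change of 0.12 ± 0.106. Ccnb2 and Ccna2, cyclins B2 and A2, had averaged log2 fold changes of 0.29 ± 0.0914 and 0.29 ± 0.105 (adjusted p = 0.290 and 0.347). A pseudogene of Ccnb1 had 876 counts over all libraries and one of Ccnb2 had 83, and Ccna2 overlaps Exosc9 on the other strand, so reads could be shared.

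The mitotic kinases and the chromosomal passenger complex correct attachments and shape the spindle. Aurka, the spindle pole kinase, had 35.2, 40.3 and 47.7 FPKM in mutant IFNα libraries and 44.2, 37.3 and 41.3 FPKM in WT IFNα libraries, against 33.2, 33.5 and 34.8 FPKM in mutant controls and 33.5, 32.1 and 40.9 FPKM in WT controls. In FPKM the groups did not overlap in the mutant and overlapped in the wild type, and in CPM it was the other way round, giving an averaged log2 fold change of 0.23 ± 0.0835 (adjusted p = 0.355). Aurkb, the kinase of the passenger complex, had 12.1, 10.8 and 12.2 FPKM in mutant IFNα libraries and 17.9, 12.9 and 14.8 FPKM in WT IFNα libraries, against 8.499, 9.29 and 10.6 FPKM in mutant controls and 9.02, 11.1 and 14.7 FPKM in WT controls. Its groups were apart in the mutant in FPKM but not in CPM, and overlapped in the wild type on both scales, at an averaged log2 fold change of 0.33 ± 0.101 (adjusted p = 0.268). Plk1 had 54.4, 59.4 and 77.8 FPKM with IFNα in the mutant and 76.1, 64.0 and 69.4 FPKM with IFNα in the wild type, against 45.0, 51.7 and 55.0 FPKM in mutant controls and 48.5, 63.6 and 66.4 FPKM in WT controls. The groups of Plk1 overlapped in both lines in FPKM and were apart in the wild type in CPM, and mutant IFNα 3 was its highest library, at an averaged log2 fold change of 0.27 ± 0.103.

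Incenp, the scaffold of the passenger complex, was apart from control in both lines in FPKM, and in CPM in the wild type alone. It had 7.77, 7.13 and 7.29 FPKM in mutant IFNα libraries and 12.1, 9.12 and 9.92 FPKM in WT IFNα libraries, against 5.86, 6.76 and 7.02 FPKM in mutant controls and 5.98, 7.89 and 8.82 FPKM in WT controls. In the wild type its log2 fold change was 0.44 ± 0.127 (adjusted p = 0.575), and the average was 0.30 ± 0.0896 (adjusted p = 0.262). Birc5, whose product survivin belongs to the same complex, had 35.1, 40.1 and 34.3 FPKM in mutant IFNα libraries and 46.2, 43.8 and 45.7 FPKM in WT IFNα libraries, against 42.4, 41.7 and 39.3 FPKM in mutant controls and 34.6, 37.4 and 43.5 FPKM in WT controls. IFNα libraries were above the controls in the wild type, whereas in the mutant 2 of 3 lay below all controls in FPKM and 3 of 3 in CPM. The averaged IFNα log2 fold change of Birc5 was 0.014 ± 0.0697, with a 95% interval of −0.14 to 0.16, and it reversed to −0.0045 after removal of each library's length trend.

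**Figure D3:**
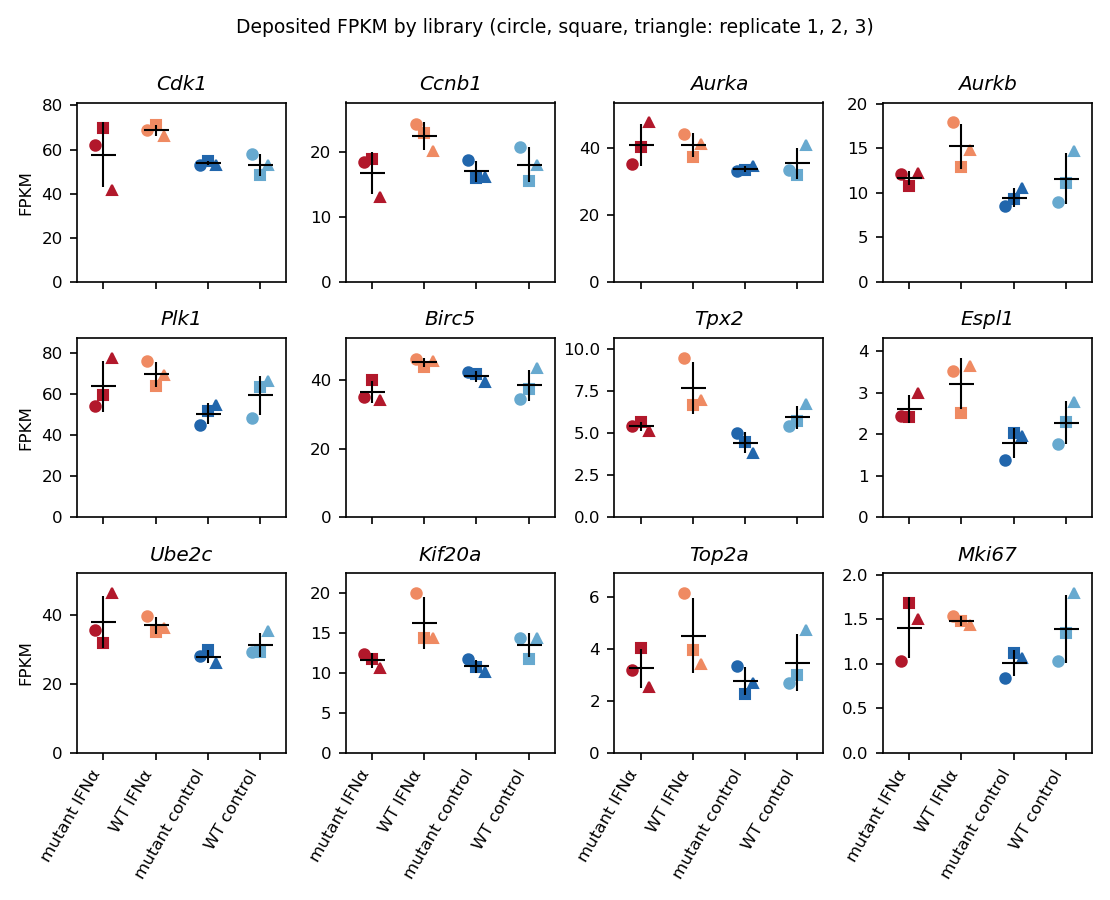
Deposited FPKM of 12 genes in every library, by group (symbols, replicates 1 to 3; horizontal bars, group means; vertical bars, SD over 3 libraries). Tpx2 lies lower in both mutant groups than in the matching WT group, with 3.79 to 5.02 FPKM in mutant controls and 5.40 to 6.72 FPKM in WT controls.

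The genes that release anaphase held the 2 smallest p-values of the IFNα average. Espl1 encodes separase, the protease that cuts cohesin. In the deposited coordinates, whose gene starts mostly differ from those of the named build GRCm38, it lies on chromosome 15 at 102204701 to 102232792. It had 2.44, 2.41 and 2.99 FPKM in mutant IFNα libraries and 3.52, 2.51 and 3.64 FPKM in WT IFNα libraries, against 1.38, 2.04 and 1.95 FPKM in mutant controls and 1.77, 2.30 and 2.79 FPKM in WT controls. The groups of Espl1 did not overlap in the mutant (0.52 ± 0.185, adjusted p = 0.391), and in the wild type WT IFNα 2 lay below WT control 3 in FPKM, though in CPM those groups were apart too. The averaged log2 fold change was 0.51 ± 0.131, or 1.42-fold, with an adjusted p of 0.171 by edgeR, 0.178 by limma and 0.0194 by DESeq2. Ube2c, which builds ubiquitin chains for the anaphase-promoting complex, lies on chromosome 2 at 164611818 to 164620742 in the same coordinates. It had 35.9, 31.9 and 46.5 FPKM in mutant IFNα libraries and 39.8, 35.0 and 36.4 FPKM in WT IFNα libraries, against 28.0, 29.8 and 26.1 FPKM in mutant controls and 29.3, 29.3 and 35.5 FPKM in WT controls. The mutant groups of Ube2c were apart (0.42 ± 0.132, adjusted p = 0.354), and in the wild type WT IFNα 2 lay just below WT control 3 in FPKM. In CPM WT IFNα 2 was at 95.6 and WT control 3 at 86.9, and all 6 IFNα libraries lay above all 6 controls. Its averaged log2 fold change was 0.33 ± 0.0930, with an adjusted p of 0.217 by edgeR, 0.180 by limma and 0.0498 by DESeq2. Cdc20, the activator of the complex, was at 0.18 ± 0.0954 (adjusted p = 0.571), with 33.8 to 55.6 FPKM under IFNα and 36.5 to 53.3 FPKM in controls.

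Of the spindle checkpoint genes, the kinase Bub1 had the largest averaged IFNα log2 fold change, 0.43 ± 0.144 (adjusted p = 0.301), with 2.31 to 4.58 FPKM under IFNα and 1.69 to 2.96 FPKM in controls. Bub1b, Ttk and Mad2l1 were at 0.19 ± 0.0907, 0.072 ± 0.140 and 0.14 ± 0.140. Among kinetochore and centromere genes, Cenpa, the histone H3 variant that marks centromeres, was at 0.31 ± 0.0935 (adjusted p = 0.254). Without mutant IFNα 3, the library that stood lowest for Cenpa within its group, it was at 0.39 and passed (adjusted p = 0.0423). Cenpf, a large kinetochore protein, had 0.0905, 0.142 and 0.168 FPKM in mutant IFNα libraries and 0.166, 0.174 and 0.169 FPKM in WT IFNα libraries, against 0.103, 0.0876 and 0.0908 FPKM in mutant controls and 0.0927, 0.117 and 0.158 FPKM in WT controls. Its wild-type groups were apart and its mutant groups overlapped, with a wild-type log2 fold change of 0.46 ± 0.251 (adjusted p = 0.966) and an average of 0.47 ± 0.179. Ndc80 and Nuf2, partners in the complex that grips microtubules, were at 0.28 ± 0.126 and 0.12 ± 0.0936. Cenpe, a kinetochore motor, was the 1 gene with a negative averaged log2 fold change, −0.074 ± 0.194, and it was positive, at 0.054, without mutant IFNα 3.

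Spindle factors and motors were all positive in the average. Tpx2 was at 0.31 ± 0.0876 (adjusted p = 0.217) and Hmmr, a spindle-associated hyaluronan receptor, at 0.35 ± 0.1001 (adjusted p = 0.226). Kif11, Kif2c, Kif4 and Nusap1, 3 motors of the kinesin family and a microtubule bundler, ranged from 0.20 for Kif2c to 0.29 for Kif11. All 7 midzone and cytokinesis genes were positive as well, led by Anln at 0.33 ± 0.109, Ect2 at 0.30 ± 0.126 and Racgap1 at 0.25 ± 0.0827, which anchor and position the contractile ring. Kif23, Prc1, Cit and Kif20a lay between 0.16 and 0.22. The adjusted p of these 13 genes was at least 0.217.

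The genes of chromosome structure were all positive in the average. Smc2, a core subunit of condensin, had 2.31, 2.38 and 1.57 FPKM in mutant IFNα libraries and 3.01, 1.94 and 1.53 FPKM in WT IFNα libraries, against 1.38, 1.22 and 1.42 FPKM in mutant controls and 1.86, 1.64 and 2.02 FPKM in WT controls. In the mutant all IFNα libraries were above all controls, at a log2 fold change of 0.61 ± 0.201 (adjusted p = 0.374), while in the wild type WT IFNα 3 lay below every control. Top2a, the topoisomerase that untangles sister chromatids, had 3.20, 4.04 and 2.52 FPKM in mutant IFNα libraries and 6.14, 3.95 and 3.42 FPKM in WT IFNα libraries, against 3.35, 2.25 and 2.67 FPKM in mutant controls and 2.69, 2.99 and 4.73 FPKM in WT controls. Mki67 had 1.03, 1.69 and 1.501 FPKM in mutant IFNα libraries and 1.53, 1.47 and 1.43 FPKM in WT IFNα libraries, against 0.841, 1.12 and 1.07 FPKM in mutant controls and 1.03, 1.34 and 1.79 FPKM in WT controls. For both genes the groups overlapped in both lines, at averaged log2 fold changes of 0.29 ± 0.153 and 0.27 ± 0.137. Ncapd2, Ncapg and Smc4, further condensin subunits, were at 0.31 ± 0.104, 0.12 ± 0.147 and 0.13 ± 0.129.

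Whether the IRF7 form altered these genes was asked without IFNα, with it, and as the average of both. In the average 1 of 40 genes passed and was lower in the mutant (0.915% of all genes were called lower). DESeq2 called 2 lower, against 474 of all 17590 genes, and limma 1 of 37, with its share over all genes not given here. At an unadjusted p under 0.05, 10 were lower, against 8.21% of all genes, and 0 higher. The log2 fold change was negative for 37 of 40, against 50.1% of all genes, at a median of −0.21 against −0.0011. All 40 intervals lay within 2-fold in either direction, and 33 within 1.5-fold. The melanocyte markers lay on the same side, with 10 of 10 negative at a median of −0.23 and sums of 9822 to 10757 CPM in the mutant and 11215 to 13401 CPM in the wild type. The leukocyte markers were all positive (7 of 7 tested, median 0.37), with sums of 79.9 to 143 CPM in the mutant and 76.4 to 119 CPM in the wild type, and Cd3e and Ncr1 at 0 in 9 of 12 libraries. Fibroblast and endothelial markers were positive in 7 of 9 (median 0.27), with sums of 33.4 to 82.3 CPM in the mutant and 37.7 to 68.3 CPM in the wild type. The part of these markers in the result was not tested.

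Without IFNα, 33 of 40 genes were lower in the mutant, against 49.4% of all genes, at a median log2 fold change of −0.16 against 0.0049. By edgeR, DESeq2 and limma 0 of them passed (0.165% of all genes did by edgeR), with 3 lower at an unadjusted p under 0.05 against 4.63% of all genes. For 6 of 40 genes the groups did not overlap in FPKM, all lower in the mutant, against 12.7% of all genes. In CPM 4 were apart and lower, against 8.01% of all genes, and 2, Birc5 and Cenpa, were apart and higher, against 12.2%. With IFNα, 35 of 40 were lower, against 51.5% of all genes, at a median of −0.24 against −0.014. There too 0 passed by any of the 3 tools (0.597% of all genes did by edgeR), 10 were lower at an unadjusted p under 0.05 against 6.15% of all genes, and 13 of 40 did not overlap in FPKM, all lower, against 12.1% of all genes. In CPM 12 did not overlap, all lower, against 8.52% of all genes. The groups of these comparisons share no library, and 30 of 40 genes were negative in both. Here too the genes are not separate observations, and the share over all genes was not worked out. With the term for lung transcripts the medians were −0.095 without IFNα and −0.28 with it.

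**Figure D4:**
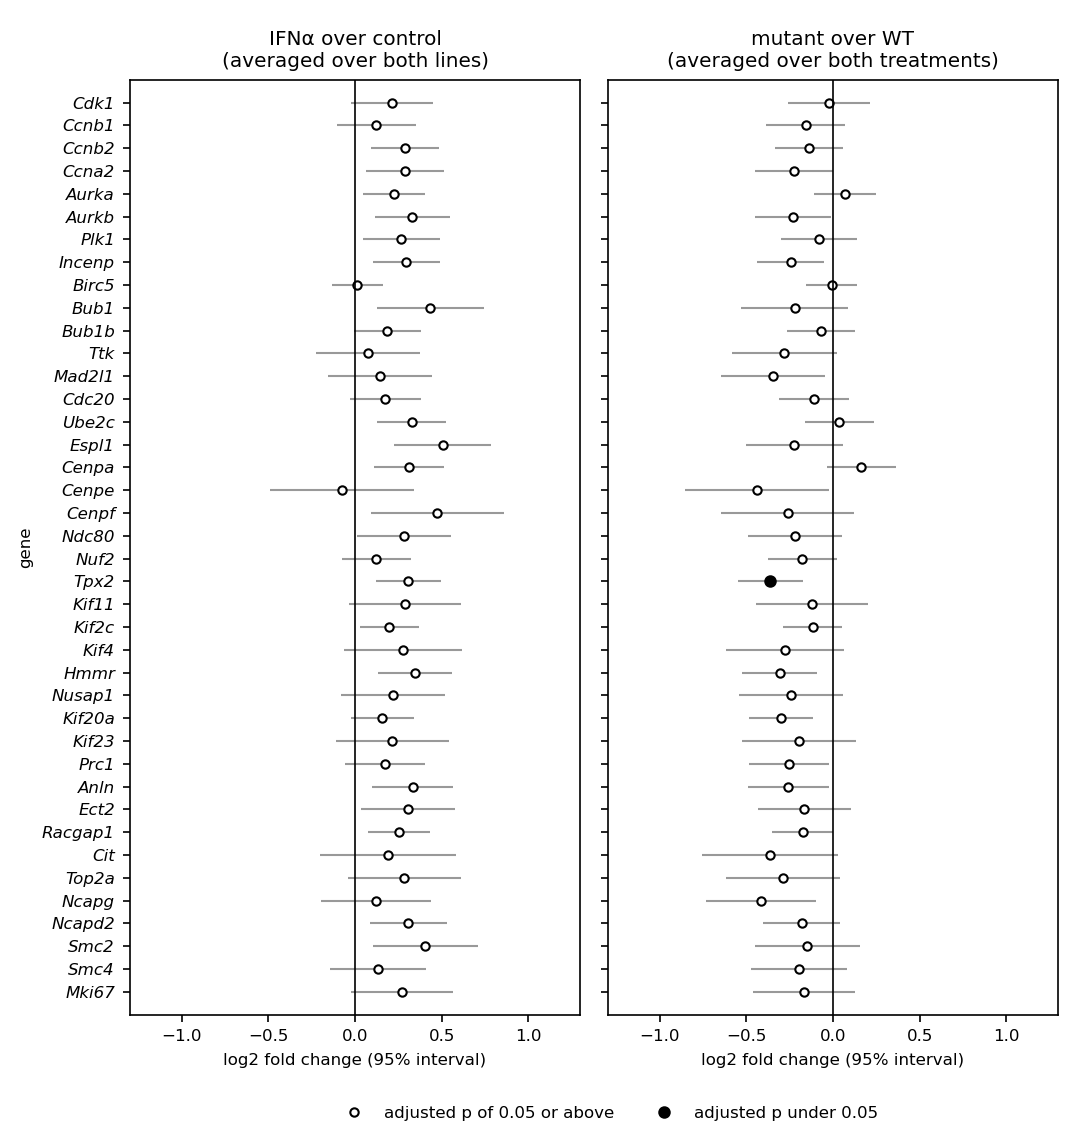
Log2 fold changes of the 40 genes with 95% intervals from edgeR, for IFNα over control averaged over both lines (left) and for mutant over WT averaged over both treatments (right); the filled point passed an adjusted p of 0.05. On the left 39 of 40 points lie right of 0, and on the right 37 of 40 lie left of 0, with Tpx2 filled at −0.36.

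Tpx2 lies on chromosome 2 at 152689884 to 152737241 in the deposited coordinates. Its product activates Aurora A and nucleates microtubules near chromosomes. Tpx2 had 5.44, 5.67 and 5.12 FPKM in mutant IFNα libraries and 9.48, 6.64 and 6.98 FPKM in WT IFNα libraries, against 5.02, 4.49 and 3.79 FPKM in mutant controls and 5.40, 5.71 and 6.72 FPKM in WT controls. Within each treatment every mutant library lay below every wild-type library. The log2 fold change of Tpx2 was −0.36 ± 0.0876 in the average (adjusted p = 0.0430; 0.00372 by DESeq2 and 0.0400 by limma) and −0.41 ± 0.124 with IFNα (adjusted p = 0.159). Its adjusted p was 0.0623 with no filter on low counts, 0.0600 with a term for libraries above 1 CPM of lung transcripts and 0.0757 with the length trend removed. The 1 CPM cut splits the 4 libraries with almost no lung transcripts, placing mutant IFNα 2 (1.06 CPM) and WT control 3 (1.09 CPM) with the 8 that hold them. With a term for those 8 alone, chosen after the data were seen, the call held. The call was lost in 9 of 12 fits that each left out 1 library, at adjusted p of 0.0588 to 0.121 and log2 fold changes of −0.38 to −0.32. It held without WT IFNα 2, mutant control 1 or WT control 1, at adjusted p of 0.0466 to 0.0496.

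Kif20a, a kinesin of the midzone, came next by p. It had 12.4, 11.7 and 10.6 FPKM in mutant IFNα libraries and 19.96, 14.3 and 14.3 FPKM in WT IFNα libraries, against 11.7, 10.7 and 10.1 FPKM in mutant controls and 14.3, 11.7 and 14.3 FPKM in WT controls. With IFNα the mutant libraries lay below the wild-type libraries. Without it they did so narrowly in FPKM but not in CPM, where mutant control 1 was at 54.9 and WT control 2 at 53.6. Its averaged log2 fold change was −0.30 ± 0.0853 (adjusted p = 0.0788 by edgeR, 0.0154 by DESeq2 and 0.05001 by limma). Kif20a overlaps Cdc23 on the other strand, and whether counting used strand is not stated. Hmmr had 2.43, 2.76 and 2.84 FPKM in mutant IFNα libraries and 3.96, 3.25 and 2.70 FPKM in WT IFNα libraries, against 2.19, 1.73 and 1.87 FPKM in mutant controls and 2.80, 2.43 and 3.03 FPKM in WT controls. Its controls were apart (−0.41 ± 0.142, adjusted p = 0.338), its IFNα groups overlapped, and its average was −0.31 ± 0.10 (adjusted p = 0.119).

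A further 4 genes led those whose groups did not overlap. Ncapg, a condensin subunit, had 1.37, 1.38 and 0.801 FPKM in mutant IFNα libraries and 1.87, 1.79 and 1.18 FPKM in WT IFNα libraries, against 1.15, 0.870 and 1.04 FPKM in mutant controls and 1.52, 1.37 and 1.71 FPKM in WT controls. Cenpe had 0.255, 0.331 and 0.144 FPKM in mutant IFNα libraries and 0.339, 0.362 and 0.303 FPKM in WT IFNα libraries, against 0.230, 0.205 and 0.283 FPKM in mutant controls and 0.294, 0.319 and 0.504 FPKM in WT controls. For both genes the control groups were apart in FPKM, though those of Cenpe met in CPM (mutant control 3 at 2.73, WT control 1 at 2.72). The log2 fold changes without IFNα were −0.48 ± 0.209 for Ncapg and −0.51 ± 0.274 for Cenpe (adjusted p = 0.434 and 0.523), and the IFNα groups of both genes overlapped. Mad2l1, which encodes the checkpoint protein MAD2, had 5.35, 4.97 and 4.28 FPKM in mutant IFNα libraries and 6.33, 7.87 and 8.07 FPKM in WT IFNα libraries, against 4.54, 5.28 and 4.94 FPKM in mutant controls and 7.54, 5.52 and 4.46 FPKM in WT controls. Kif4, a chromosome-bound kinesin, had 0.987, 1.14 and 1.10 FPKM in mutant IFNα libraries and 2.14, 1.16 and 1.40 FPKM in WT IFNα libraries, against 1.15, 0.891 and 0.875 FPKM in mutant controls and 0.746, 1.22 and 1.49 FPKM in WT controls. For Mad2l1 and Kif4 it was the IFNα groups that were apart, at −0.53 ± 0.199 and −0.43 ± 0.224 (adjusted p = 0.253 and 0.428), and the controls overlapped. Kif4 had 5846 counts in all and overlaps Pdzd11, with 65261 counts, on the other strand, so part of its reads may belong to that gene.

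By role, the averaged mutant change was negative for all 6 spindle and motor genes (median −0.26), all 7 midzone and cytokinesis genes (median −0.25) and all 6 chromosome structure genes (median −0.19). All 4 checkpoint genes (median −0.25) and all 4 cyclin and CDK genes (median −0.15) were negative too. The kinases were less uniform, at a median of −0.081. Aurkb and Incenp were at −0.23 ± 0.101 and −0.24 ± 0.0895, whereas Plk1, Birc5 and Aurka were at −0.081 ± 0.103, −0.0082 ± 0.0697 and 0.069 ± 0.0834. The 3 positive genes were Aurka, Ube2c at 0.036 ± 0.0929 and Cenpa at 0.16 ± 0.0934, and Aurka and Ube2c were negative with library totals as scaling (−0.019 and −0.051) and by limma (−0.031 and −0.068). Cdk1 was at −0.025 ± 0.110, with a 95% interval of −0.26 to 0.21, Top2a at −0.29 ± 0.153 and Mki67 at −0.17 ± 0.137. The other genes of the averaged comparison ranged from −0.44 for Cenpe to −0.069 for Bub1b.

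Whether IFNα acted differently in the 2 lines was tested as an interaction, the change with IFNα in the mutant minus that in the wild type. By edgeR 0 of 40 genes passed (0% of all genes did), with 1 lower at an unadjusted p under 0.05 (2.42% of all genes were) and 0 higher, and DESeq2 and limma called 0. The median interaction was −0.084 against −0.019 over all genes, with 25 of 40 negative against 52.3% of all genes. Birc5, whose values are given above, had the smallest p, at −0.42 ± 0.140 (adjusted p = 0.916). All 7 midzone and cytokinesis genes were negative (median −0.17) and 5 of 6 chromosome structure genes positive (median 0.12). The median interaction depended on single libraries and on the lung term, at 0.017 without WT IFNα 1 and −0.21 with the term.

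**Figure D5:**
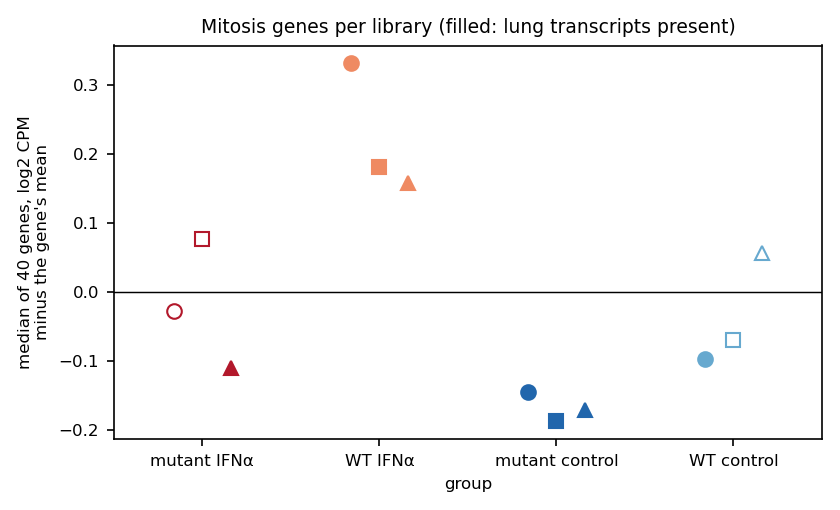
Median over the 40 genes of log2 CPM minus the gene's mean, 1 point per library (shape, replicate; filled, lung transcripts present). WT IFNα libraries lie at 0.16 to 0.33 and mutant controls at −0.19 to −0.15, with mutant IFNα at −0.11 to 0.08 and WT controls at −0.10 to 0.06 between them.

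The libraries did not move all 40 genes alike. WT IFNα 1 held the highest CPM of 19 genes and had a median of 0.33, while WT IFNα 2 and 3 were at 0.18 and 0.16. Without WT IFNα 1 the median IFNα change in the wild type was 0.23, with 35 of 40 positive, and the median mutant change with IFNα was −0.19. Mutant IFNα 3 varied most from gene to gene, with an SD over the 40 genes of 0.379 around its group's other libraries, against 0.181 to 0.328 in the other 11. Over all genes tested the same library also had the largest SD, 1.47 against 0.955 to 1.16, so its spread was not particular to the 40 genes. Relative to mutant IFNα 1 and 2 it was higher for Plk1 by 0.48, for Aurka by 0.37 and for Ube2c by 0.49 on the log2 scale. It was lower for Cdk1 (−0.63), Cdc20 (−0.46), Ccnb1 (−0.49) and Cenpe (−0.96). Without it the median IFNα change in the mutant was 0.23, with 37 of 40 positive.

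Neighbouring gene sets shared the direction in part. Of 118 other mitotic genes, which cover further kinetochore, cohesin, condensin and spindle genes, 96 had a positive averaged IFNα change (median 0.15), against 50.4% of all genes. By edgeR 0 passed, with 30 higher (5.70% of all genes were) and 1 lower at an unadjusted p under 0.05. DESeq2 called 6 higher, against 141 of all 17590 genes, and limma 1 of 95, with its share over all genes not given here. In the averaged mutant comparison 83 of 118 were negative (median −0.086), against 50.1% of all genes. Of them 1 passed and was lower, against 0.915% of all genes called lower. This was Zw10, a kinetochore protein that recruits dynein (−0.36 ± 0.0759, adjusted p = 0.0242). Of 44 DNA replication genes, 38 had a positive averaged IFNα change (median 0.14). In the mutant 25 of 44 were positive (median 0.034) and in the wild type 44 of 44 (median 0.23). The averaged mutant comparison of the replication genes was mixed, with 26 of 44 negative (median −0.039). At an unadjusted p under 0.05, 5 were higher and 9 lower, against 9.88% and 8.21% of all genes. By edgeR 3 passed as higher (1.89% of all genes did) and 0 as lower. DESeq2 called 4 higher and 6 lower, against 711 and 474 of all 17590 genes. Of 41 tested, limma called 1 higher and 2 lower, with its share over all genes again not given. The 3 that passed by edgeR were Cdc45, part of the replicative helicase (0.37 ± 0.0640, adjusted p = 0.00860), Chaf1b, of the histone chaperone CAF-1 (0.42 ± 0.0739, adjusted p = 0.00885), and Rfc3, of the clamp loader (0.29 ± 0.0718, adjusted p = 0.0463).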

How the data were processed

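RNA of B16F10 cells was sequenced in 12 libraries, and the sample labels gave the 4 groups of 3. The protocols in the labels describe poly(A) selection, dUTP-marked second strands, adapters with molecular identifiers and paired reads. Tools in the submitters' processing notes are StringTie 1.3.4d, HISAT2 2.0.4, UMI-tools and cutadapt 1.9, besides edgeR and DESeq2, and the build is GRCm38, with no roles. The counting step, its use of strand and its annotation were not stated. Per the file headers, the authors deposited unscaled whole-number counts per gene. They also deposited FPKM, which the authors had scaled by length and by library size. Of the gene starts, 2.17% equal those of GRCm38, so positions appear as deposited, with no conversion. Over 6318 genes with high counts the log2 ratio between libraries of a group had an SD of 0.232 to 0.438, so no libraries of a group were identical and all 12 were kept.

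The 40 genes, the other lists and the tests were chosen with earlier results of these data known, so no pattern here is independent of them. Counts were tested with edgeR 4.0.16 (R 4.3.3; TMM scaling, default filter on low counts, quasi-likelihood test, two-sided) in 1 fit of 12 libraries with 4 group means and 7 contrasts. Adjustment was by Benjamini-Hochberg over 17590 genes, at a threshold of 0.05. Errors of fold changes are standard errors. Library values were given for genes past the threshold, for 8 genes set by name (Cdk1, Ccnb1, Aurka, Aurkb, Plk1, Top2a, Mki67, Birc5) and for the 2 largest changes in either direction among genes whose groups do not overlap. Kif20a, Hmmr and Ube2c were added after their values were seen. Alternatives were DESeq2 1.42.0, limma-trend 3.58.1 on log2(FPKM + 1) after requiring an FPKM of 1 in 3 or more libraries, other scalings, no filter, a replicate block, lung terms, removal of each library's trend with length, and leaving out each library. Lengths are those of the longest annotated transcript, since lengths implied by count and FPKM were erratic. The code was tested on simulated counts. Promoter sequences are from RefSeq (GRCm38.p6).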

Additional observations from a re-analysis of the deposited data

How the results depend on the processing

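The direction of the median over the 40 genes held under all alternatives run, except in the interaction, whose median was −0.12 to 0.017 with 1 library left out and −0.21 with the term for libraries above 10 CPM of lung transcripts, a term chosen after the data were seen. With library totals as scaling the mutant medians were −0.24 without IFNα and −0.30 in the average. The IFNα median in the wild type was 0.23 to 0.32 with 1 library left out. Genes called among the 40 were 2 by DESeq2 in each averaged comparison. In the averaged mutant comparison they were 0 with no filter, with the term for libraries above 1 CPM of lung transcripts and with the length trend removed, and 0 to 1 with 1 library left out. The 1 CPM cut falls among the libraries with almost no lung transcripts, at 0.834 to 1.09 CPM. With the 10 CPM term the call of Tpx2 held. In the averaged IFNα comparison they were 0 to 1 with 1 library left out. Why calls came and went was not tested.

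Same-numbered libraries did not deviate together (1 of 18 correlations over 0.1, range −0.15 to 0.10), so the numbers gave no sign of pairing. With 3 libraries per group such correlations cannot exclude it. With a replicate block 0 of the 40 genes were called in the averaged mutant comparison (Tpx2 at −0.36, adjusted p = 0.0612). With the block the count of all genes called was 0 with IFNα in mutant cells, 2 in wild-type cells, 17 for the untreated mutant, 59 for the treated mutant, 7 for averaged IFNα and 314 for the averaged mutant.

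All genes called numbered 1 with IFNα in mutant cells, 4 in wild-type cells, 29 for the untreated mutant, 105 for the treated mutant, 0 in the interaction, 30 for averaged IFNα and 493 for the averaged mutant. DESeq2 called 145, 65, 240, 599, 14, 267 and 1185 in the same order. In the mutant, IFNα gave 2 calls with library totals, 3 by limma and 4 with the length trend removed. With IFNα, the mutant against the wild type gave 49 with library totals, 56 by limma and 47 with the lung term at 1 CPM, which also gave 1 call in the interaction. Averaged IFNα gave 13 with library totals and 8 with no filter, the averaged mutant 281 with no filter, and IFNα in the wild type 1 with the lung term at 10 CPM. With 1 library left out the counts were 0 to 2, 0 to 7, 11 to 58, 21 to 112, 0, 4 to 44 and 199 to 550.

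Single genes near 0 reversed. In the averaged IFNα comparison Birc5 was at −0.0045 without the length trend, and with 1 library left out at −0.015 to 0.035, Cenpe at −0.20 to 0.054 and Ttk at −0.017 to 0.15. In the averaged mutant comparison Aurka and Ube2c were at −0.019 and −0.051 with library totals and −0.031 and −0.068 by limma, and Cdk1 and Birc5 at 0.043 and 0.031 without the length trend. With 1 library left out Birc5 was at −0.040 to 0.0089, Cdk1 at −0.098 to 0.065 and Ube2c at −0.054 to 0.098.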
